A study of Mus musculus with 8 samples.

Results

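The genes described here are 9 endothelial genes, Cdh5, Kdr, Emcn, Stab2, Pecam1, Tek, Flt1, Mmrn1 and Eng, in RNA-seq libraries of mouse bone marrow B cells. They were taken by symbol, through their Ensembl identifiers, from a table of 54532 genes, and all 9 were found. RNA was sequenced from B cells of mice after sham surgery (Sham) or after removal of the ovaries (OVX), with 3 libraries in each group, to ask how loss of estrogen changes transcription in B cells and which of those genes HIF-1α may bind. This operation, ovariectomy, removes the main source of estrogen and is used as a model of postmenopausal bone loss. In both groups the bone was dissected and the B cells were sorted on magnetic beads. Strain, age and time after surgery are not given in the labels of these libraries, nor is it said whether each library came from 1 mouse, so the p-values measure the spread between these libraries, which may be technical.

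The marrow is drained by sinusoids, wide and thin-walled vessels whose endothelial cells hold together through VE-cadherin and PECAM-1, depend on VEGF and angiopoietin signals, and take up waste molecules through scavenger receptors such as stabilin-2. Blood cells enter the circulation through this wall. Several of the 9 genes are also used outside vessels: PECAM-1 and endoglin are found on blood cells, TIE2 on hematopoietic stem cells, and multimerin-1 is stored in platelets. In bulk RNA, fewer cells of a type and less RNA per cell cannot be told apart.

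Stab2 and Mmrn1 had the highest spread between replicates beyond counting error of the 7 members with enough reads to be tested (biological coefficients of variation of 0.485 and 0.322), and the sequence just upstream of each is shown because the study is about HIF-1α, whose core recognition letters are ACGTG and GCGTG. Sequences are from RefSeq on GRCm38.p6, the build with the mm10 coordinates that the submitters' processing notes name, printed 5′ to 3′ on the strand of the gene and ending where the longest gene model begins. Mmrn1 lies at chr6:60944067-60944316 on the plus strand and Stab2 at chr10:87008039-87008192 on the minus strand. Capitals mark the HIF core letters.
Mmrn1: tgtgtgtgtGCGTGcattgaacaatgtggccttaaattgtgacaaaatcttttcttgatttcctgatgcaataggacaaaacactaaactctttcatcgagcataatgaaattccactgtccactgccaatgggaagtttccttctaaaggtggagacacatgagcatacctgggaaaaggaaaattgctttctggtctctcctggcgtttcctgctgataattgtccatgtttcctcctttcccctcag
Stab2: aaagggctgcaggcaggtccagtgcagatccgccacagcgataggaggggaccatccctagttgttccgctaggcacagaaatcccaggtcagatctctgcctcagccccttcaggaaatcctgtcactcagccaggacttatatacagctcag
The table of promoters, each 250 bases before to 50 bases after a start site, held 7 of the 9 members and no entry for Cdh5 or Pecam1. On either strand GCGTG was in 4 of the 7 windows, with 2 matches in Kdr and 1 each in Emcn, Flt1 and Mmrn1, the last 241 bases before the start site. ACGTG was in 0 of the 7. One or the other was in 43.8% of all 32851 windows and in 4 of the 7 members. The palindromic estrogen response element was in 0 of the 7 and in 0.07% of all windows, and the GATA letters AGATAA were in 1, Tek, against 11.2% of all. The ETS letters AGGAAG were in 4 of the 7, Emcn, Stab2, Flt1 and Eng, against 35.4% of all. These matches are letters in a window and say nothing of binding in these cells.

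The libraries held between 23838775 and 33136701 counted reads, OVX replicate 3 being the largest. No 2 of the 6 libraries agreed within sampling noise. The 8 B cell markers were read at high CPM (counts scaled to the library total and edgeR's TMM factor), with the B cell receptor chains Cd79a at 1734 ± 170.0 for OVX against 1664 ± 113 for Sham and Cd79b at 1462 ± 172 and 1306 ± 103 (± SD, n = 3 each). Ebf1, a B lineage transcription factor, was the only one of the 8 at an unadjusted p under 0.05, with a log2 fold change of 0.35. Markers of other cells were present and uneven. The summed CPM of 10 neutrophil genes, led by S100a9, Ngp and S100a8, ranged from 2341 to 8610 in Sham and from 1038 to 3734 in OVX, highest in Sham replicate 3. All 10 were lower in OVX by fitted value, with a median log2 change of -1.26, and 0 were called or at an unadjusted p under 0.05.

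The 9 genes together took 0.0285%, 0.0301% and 0.0269% of the counts in the Sham libraries, replicates 1 to 3 in order, and 0.0276%, 0.0273% and 0.0313% in the OVX libraries. The widest 95% Clopper-Pearson interval of these shares, that of Sham replicate 1, ran from 0.0278% to 0.0291%. It covers the counting error of reads only and not the spread between libraries. Reads carry no molecular identifiers, so repeated reads of the same molecule are counted as separate. The group means were 0.0285% ± 0.00160 in Sham and 0.0288% ± 0.00223 in OVX (± SD, n = 3 each), so the groups differed by less than the spread between libraries. Most of these reads were of 1 gene: Pecam1 made up between 72.9% and 84.2% of them. Without it the share was between 0.00424% and 0.00655% in Sham and between 0.00484% and 0.00850% in OVX, highest in OVX replicate 3.

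No member was called in OVX against Sham. Of the 7 members with enough reads to pass edgeR's filter, 0 had a Benjamini-Hochberg adjusted p under 0.05 in edgeR's quasi-likelihood test over all 15305 genes tested, and 0 had an unadjusted p under 0.05. Across all genes 0% were called and 3.75% had an unadjusted p under 0.05, 1.47% higher and 2.28% lower in OVX. DESeq2 and limma-voom likewise called 0 members, with 0 at an unadjusted p under 0.05. The lowest adjusted p of any gene was 0.811. Of the 7, 5 had a higher and 2 a lower fitted level in OVX, and their median was a log2 fold change of 0.06, beside -0.0081 for all genes tested, of which 48.2% were higher. Leaving out OVX replicate 3 gave a member median of 0.0079, leaving out OVX replicate 1 gave 0.12, and leaving out Sham replicate 2 or 3 gave 0.23 or 0.11. With a library left out, a member passed an unadjusted p under 0.05 in 2 fits of edgeR's quasi-likelihood test. Mmrn1 did so without Sham replicate 1 (unadjusted p = 0.00485, adjusted p = 0.273 by edgeR), where 2698 of all 16051 genes did. Kdr did so when OVX replicate 1 was left out (unadjusted p = 0.0389, adjusted p = 0.758 by edgeR), where 988 of all 15977 genes did. Emcn and Tek had too few reads for the filter, and their values below come from the fit without it.

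**Figure D1:**
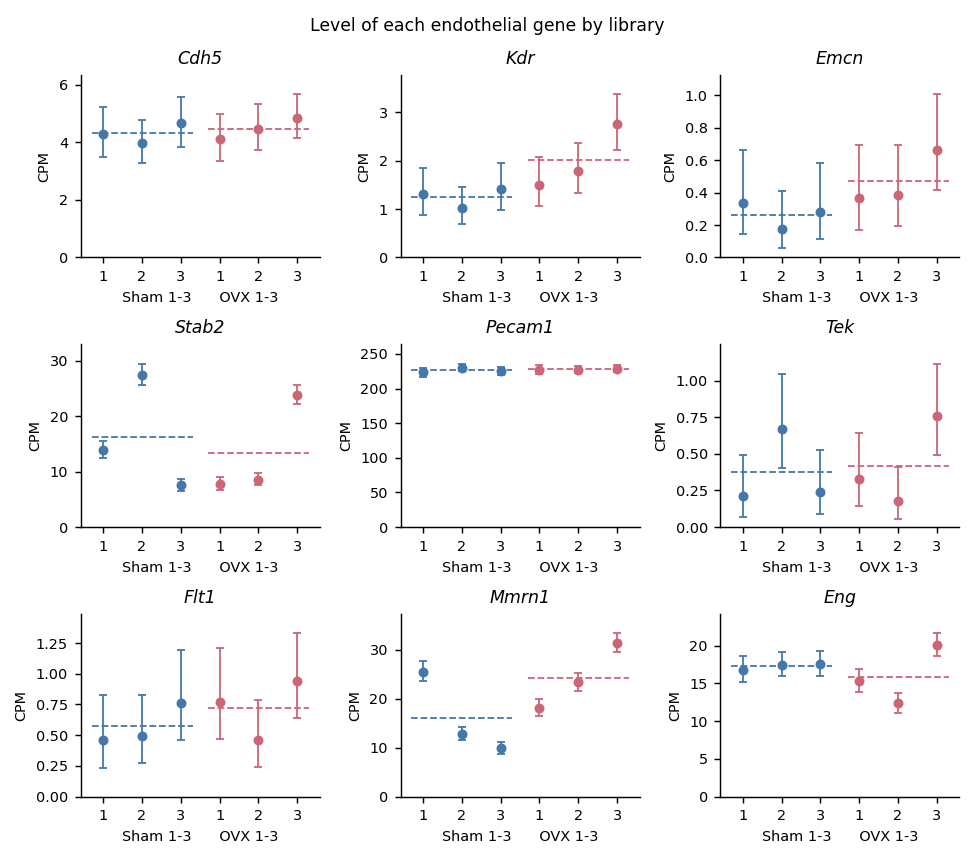
Level of each of the 9 endothelial genes in CPM (vertical axis, from 0) in Sham replicates 1 to 3 (blue) and OVX replicates 1 to 3 (red), with bars for the 95% Poisson counting interval and dashed lines for group means. Pecam1 sits between 223 and 230 CPM in all 6 libraries, whereas Stab2 spans 7.52 to 27.5 CPM within Sham alone.

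Cdh5 (ENSMUSG00000031871, chr8:104101613-104144504) encodes VE-cadherin, the adhesion molecule of endothelial adherens junctions and a defining gene of endothelium. It had 102, 113 and 116 reads in the Sham libraries, always in the order of replicates 1 to 3, and 101, 127 and 161 in OVX, or 4.30, 3.98 and 4.66 CPM against 4.11, 4.48 and 4.87. The groups overlapped and every library lay close to every other. The mean was 4.49 ± 0.380 CPM for OVX against 4.31 ± 0.343 for Sham (± SD, n = 3 each). The log2 fold change was 0.06 (standard error 0.18, 95% interval -0.36 to 0.48, adjusted p = 0.939 by edgeR's quasi-likelihood test). Within groups its counts scattered no more than counting error gives, with a chi-square over its degrees of freedom of 0.817, where 1 is expected of counting error alone.

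Pecam1 (ENSMUSG00000020717, chr11:106654213-106715281) encodes PECAM-1, or CD31, an adhesion receptor of endothelial junctions that leukocytes and platelets also carry. It had 5293, 6543 and 5617 reads in Sham and 5590, 6451 and 7564 in OVX. These are 223, 230 and 226 CPM against 227, 227 and 229. It was the steadiest member. Within groups its counts scattered no more than counting error gives, with a chi-square over degrees of freedom of 0.773. Its biological coefficient of variation, edgeR's fitted value for spread between replicates beyond counting error, was 0.0808. That was at the 0.810th percentile of all genes tested. The log2 fold change was 0.0094 (standard error 0.057), with a 95% interval from a 0.917-fold to a 1.10-fold level in OVX (adjusted p = 0.969 by edgeR's quasi-likelihood test). Its sign turned with other scalings, being -0.011 with the library size only and -0.053 with scaling on the 8 B cell genes.

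Emcn (ENSMUSG00000054690, chr3:137341062-137431069) encodes endomucin, a mucin-like surface protein of capillary and venous endothelium. It had 8, 5 and 7 reads in Sham and 9, 11 and 22 in OVX. At 0.337, 0.176 and 0.281 CPM against 0.366, 0.388 and 0.665, all 3 OVX libraries exceeded all 3 Sham libraries, though OVX replicates 1 and 2 by little. The two-sided exact permutation test gave p = 0.1, the smallest that 3 libraries against 3 allow. The log2 fold change was 0.85 (standard error 0.57, 95% interval -0.39 to 2.08), with an adjusted p = 0.801 in edgeR's fit without the filter, and was 0.51 without OVX replicate 3.

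Kdr (ENSMUSG00000062960, chr5:75932827-75979072) encodes VEGFR2, the main signalling receptor for VEGF-A in endothelium. It had 31, 29 and 35 reads in Sham and 37, 51 and 91 in OVX. At 1.31, 1.02 and 1.41 CPM against 1.51, 1.80 and 2.75, the OVX libraries all exceeded the Sham libraries, as for 4.33% of all genes tested. Of the 7 tested members this held for 1, Kdr, and the exact permutation p was 0.1. The mean was 2.02 ± 0.652 CPM for OVX against 1.24 ± 0.201 for Sham (± SD, n = 3 each), and the log2 fold change was 0.70 (standard error 0.32, 95% interval -0.04 to 1.45). The p of 0.0605 was 0.811 when adjusted in edgeR's quasi-likelihood test. The value was 0.41 without OVX replicate 3 and 0.87 without OVX replicate 1. Kdr and Emcn were the most alike pair of the 36 pairs among members, with a Pearson r of 0.96 of log2 CPM over the 6 libraries, a description without a test.

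Flt1 (ENSMUSG00000029648, chr5:147561604-147726438) encodes VEGFR1, which binds VEGF-A tightly and limits how much reaches VEGFR2. It had 11, 14 and 19 reads in Sham and 19, 13 and 31 in OVX, or 0.464, 0.493 and 0.764 CPM against 0.773, 0.458 and 0.937. The groups overlapped. Its log2 fold change was 0.34 (standard error 0.41, 95% interval -0.62 to 1.29, adjusted p = 0.851 by edgeR's quasi-likelihood test), and it moved with single libraries. Leaving out OVX replicate 3 or 2 gave 0.097 or 0.58, and leaving out Sham replicate 1, 2 or 3 gave 0.21, 0.23 or 0.59.

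Of the 9 genes of the VEGF pathway around these receptors, 6 were tested, 3 higher and 3 lower, with a median log2 change of -0.07 and 0 called. Plcg1, a phospholipase that acts downstream of VEGFR2 and of the B cell receptor, was higher at an unadjusted p under 0.05 with 117 ± 7.02 CPM for OVX against 98.9 ± 9.97 for Sham. Nrp1, a VEGF co-receptor, was lower at the same threshold with 4.75 ± 1.33 CPM against 8.38 ± 2.83 (± SD, n = 3 each). Of the ligands, Vegfa, at 19.6 ± 3.08 CPM for OVX against 27.0 ± 7.49 for Sham, and Vegfb, at 14.8 ± 1.27 and 16.4 ± 1.80, did not reach it (± SD, n = 3 each).

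Tek (ENSMUSG00000006386, chr4:94739086-94874976) encodes TIE2, the receptor for angiopoietins. It had 5, 19 and 6 reads in Sham and 8, 5 and 25 in OVX, which are 0.211, 0.669 and 0.241 CPM against 0.326, 0.176 and 0.756. The high libraries were Sham replicate 2 and OVX replicate 3, 1 in each group, and the groups overlapped. Fitted, the log2 fold change was 0.16 (standard error 0.67, 95% interval -1.28 to 1.60), with an adjusted p = 0.964 in edgeR's fit without the filter. It was -0.60 without OVX replicate 3 and 0.90 without Sham replicate 2. Among 6 angiopoietin pathway genes 5 were tested, 3 higher and 2 lower, with a median of 0.08 and 0 called. The ligand Angpt1 was at 7.79 ± 2.63 CPM for OVX against 5.69 ± 1.44 for Sham, the adaptor Dok2 at 4.34 ± 1.64 and 5.17 ± 1.48, and the receptor Tie1 at 1.06 ± 0.550 and 0.995 ± 0.224 (± SD, n = 3 each).

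Eng (ENSMUSG00000026814, chr2:32646595-32682669) encodes endoglin, a co-receptor for ligands of the TGF-β and BMP family. It had 399, 497 and 438 reads in Sham and 376, 350 and 663 in OVX. In CPM the Sham libraries were near each other at 16.8, 17.5 and 17.6. The OVX libraries lay on either side, with 15.3 and 12.3 in replicates 1 and 2 and 20.1 in replicate 3. The mean was 15.9 ± 3.89 CPM for OVX against 17.3 ± 0.420 for Sham (± SD, n = 3 each), and the log2 fold change was -0.12 (standard error 0.18, 95% interval -0.55 to 0.30, adjusted p = 0.870 by edgeR's quasi-likelihood test). It was -0.32 without OVX replicate 3 and 0.032 without OVX replicate 2. Of 12 endoglin pathway genes 10 were tested, 5 higher and 5 lower, with a median of 0.0060 and 0 called. Acvrl1, the type I receptor ALK1 that pairs with endoglin, was the only one at an unadjusted p under 0.05. It was lower, at 6.29 ± 2.62 CPM for OVX against 12.7 ± 4.98 for Sham (± SD, n = 3 each). The circulating ligands Gdf2 and Bmp10 had 0 reads in all 6 libraries, whereas Tgfb1, Tgfbr2 and Smad4 were all read and did not reach that threshold.

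**Figure D2:**
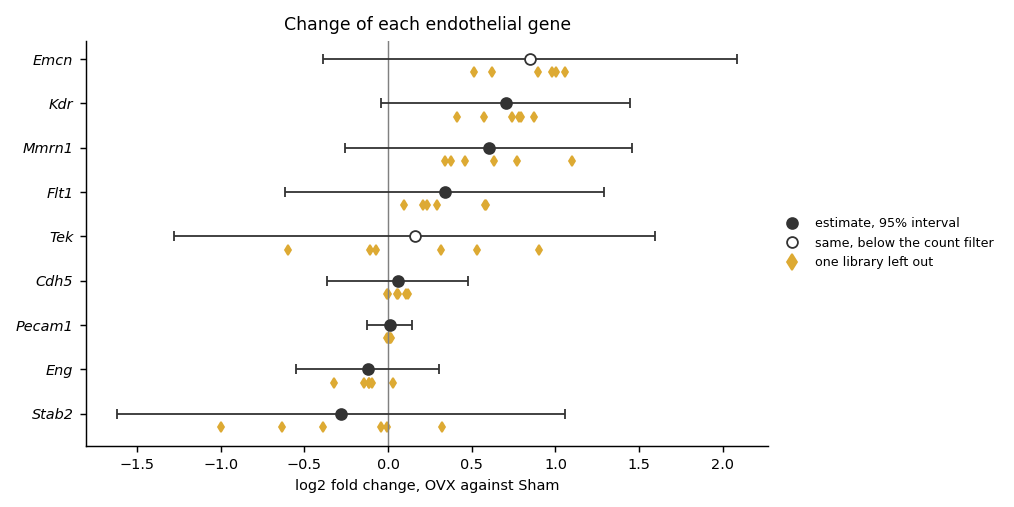
Log2 fold change of each endothelial gene in OVX against Sham (horizontal axis), with its 95% interval as a bar and the value with 1 library left out as diamonds, open circles marking the genes below the count filter. The intervals of all 9 genes cross 0, and the diamonds of Stab2 run from -0.997 to 0.32.

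Stab2 (ENSMUSG00000035459, chr10:86841194-87008038) encodes stabilin-2, a scavenger receptor that clears hyaluronan from blood and a marker of sinusoidal endothelium. It had 330, 781 and 187 reads in Sham and 191, 243 and 788 in OVX. At 13.9, 27.5 and 7.52 CPM against 7.77, 8.57 and 23.8, Sham replicate 2 and OVX replicate 3 stood high and the groups overlapped. The mean was 13.4 ± 9.05 CPM for OVX against 16.3 ± 10.2 for Sham (± SD, n = 3 each). The log2 fold change was -0.28 (standard error 0.57, 95% interval -1.62 to 1.06, adjusted p = 0.903 by edgeR's quasi-likelihood test). It was -0.997 without OVX replicate 3 and 0.32 without Sham replicate 2, so its direction rests on those libraries. Its chi-square over degrees of freedom within groups was 170, and its biological coefficient of variation of 0.485 was at the 95.1th percentile of all genes tested.

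The same libraries stood high for markers of resident macrophages, the marrow cells that engulf dying cells and spent red cells. The summed CPM of 10 such genes was between 691 and 2373 in Sham and between 611 and 2080 in OVX. By fitted value all 10 were lower in OVX, at a median of -0.34 and 0 at an unadjusted p under 0.05. Of the 10, 8 were highest in Sham replicate 2 and the other two in OVX replicate 3. For every 100 reads of C1qa, a complement gene of macrophages, there were 13.5, 12.4 and 11.6 reads of Stab2 in Sham and 14.0, 12.9 and 12.8 in OVX, a range of 1.20-fold (13.2 ± 0.673 for OVX against 12.5 ± 0.959 for Sham, ± SD, n = 3 each, exact permutation p = 0.4). For every 100 reads of Cdh5 there were between 161 and 691 reads of Stab2, a range of 4.29-fold. For every 100 reads of Stab1, its paralog, there were between 285 and 1023, a range of 3.59-fold. The other ratios of Stab2 taken had ranges of 1.22-fold with Vcam1, 1.34-fold with Mrc1 and 1.39-fold with Spic. Vcam1 and Mrc1 are on the list of other sinusoidal genes, and Spic is on the macrophage list. These ratios were chosen after the values were seen. The part of macrophage RNA in the Stab2 values was not tested.

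**Figure D3:**
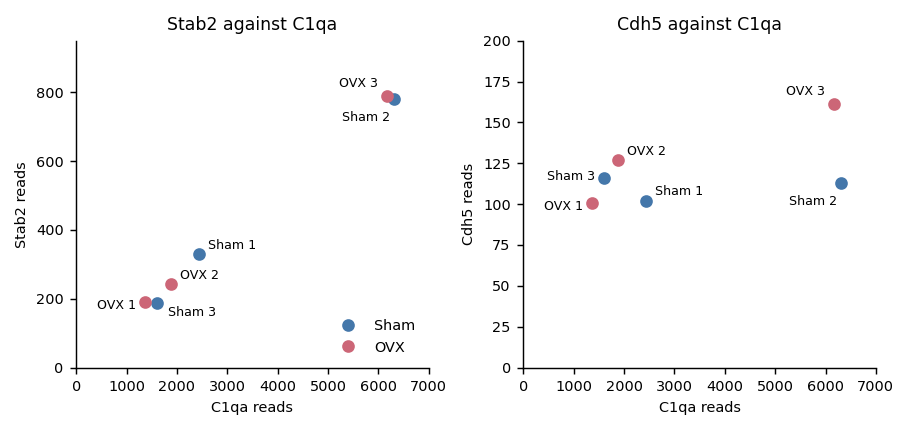
Reads of Stab2 (left) and of Cdh5 (right) against reads of C1qa in each of the 6 libraries, Sham in blue and OVX in red, on linear axes from 0. Stab2 goes from 187 to 788 reads along with C1qa, whereas Cdh5 stays between 101 and 161 reads.

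The genes whose pattern was most like that of Stab2 were Vcam1, P4ha1 and Axl, with a Pearson r of log2 CPM of 0.999, 0.999 and 0.998 over the 6 libraries. Vcam1 is an adhesion molecule of sinusoids, stroma and macrophages, and Axl is a receptor by which macrophages bind dying cells. In all, 152 genes had an r above 0.95 with Stab2. As 2 libraries are high and 4 low, such an r describes that split. Of 12 other sinusoidal genes 10 were tested, 3 higher and 7 lower, with a median of -0.22. Of these 0 were called and 0 had an unadjusted p under 0.05. By CPM 6 of the 10 were highest in Sham replicate 2 and 3 in OVX replicate 3, against 25.7% and 13.1% of all genes tested. The most abundant, Vcam1 at 261 ± 193 CPM for OVX against 333 ± 234 for Sham, and Mrc1, the mannose receptor, at 115 ± 77.5 and 157 ± 118, were highest in Sham replicate 2. Fabp4, a fatty acid carrier, was at 6.80 ± 5.38 and 7.76 ± 3.36 and was highest in OVX replicate 3 (± SD, n = 3 each). Lyve1, the hyaluronan receptor of lymphatic and sinusoidal endothelium, was highest in Sham replicate 3 with 27 reads and had 3 in Sham replicate 2.

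Mmrn1 (ENSMUSG00000054641, chr6:60944317-60989378) encodes multimerin-1, a secreted protein that binds coagulation factor V in platelets and is also made by endothelium. It had 605, 363 and 244 reads in Sham and 446, 661 and 1037 in OVX. At 25.5, 12.8 and 9.81 CPM against 18.1, 23.3 and 31.4, Sham replicate 1 lay among the OVX libraries and the other Sham libraries below all of them. The mean was 24.3 ± 6.66 CPM for OVX against 16.0 ± 8.34 for Sham (± SD, n = 3 each). Its log2 fold change was 0.60 (standard error 0.37, 95% interval -0.26 to 1.46, unadjusted p = 0.142 and adjusted p = 0.811 by edgeR's quasi-likelihood test). The value was 1.10 without Sham replicate 1, with an adjusted p = 0.273, and leaving out Sham replicate 3 or OVX replicate 3 gave 0.34 or 0.37. Mmrn1 is among the genes that the study chose on these libraries as upregulated in OVX and bound by HIF-1α. It was not called here on the same libraries, where 0 of all 15305 genes tested were called. The study's text names no threshold for its list, so the thresholds may differ. The direction of Mmrn1 here is not independent evidence.

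Mmrn1 did not keep pace with the platelet integrin gene Itga2b, with between 33.3 and 104 reads for every 100 of Itga2b. Nor did it with Cdh5, with between 210 and 644 reads for every 100 of Cdh5. With Egfl7, a secreted endothelial protein, the ratio was between 252 and 357 reads for every 100 (303.8 ± 52.3 for OVX against 294.6 ± 44.6 for Sham, ± SD, n = 3 each, exact permutation p = 0.8). These ratios were chosen after the values were seen, and the steadier one is 1 of 3. The genes most like Mmrn1 were Luc7l3, Zfp874a and Tmem129, each with a Pearson r of 0.990 or 0.991 over the 6 libraries, and 105 genes had an r above 0.95. For Kdr the most alike were Armcx1, Acot2 and 3222401L13Rik, for Emcn Atmin, 3222401L13Rik and F2rl3, and for Cdh5 A430072P03Rik, Capn10 and Traf3ip2. For Flt1 they were Thbs1, Spx and Cpxm1, for Eng Kifap3, Rsu1 and Gm11944, for Tek Tbx19, Dad1 and Rph3al, and for Pecam1 Gm17039, Thrb and 4933439K11Rik. None of them is a member, and the least alike of these had an r of 0.975.

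**Figure D4:**
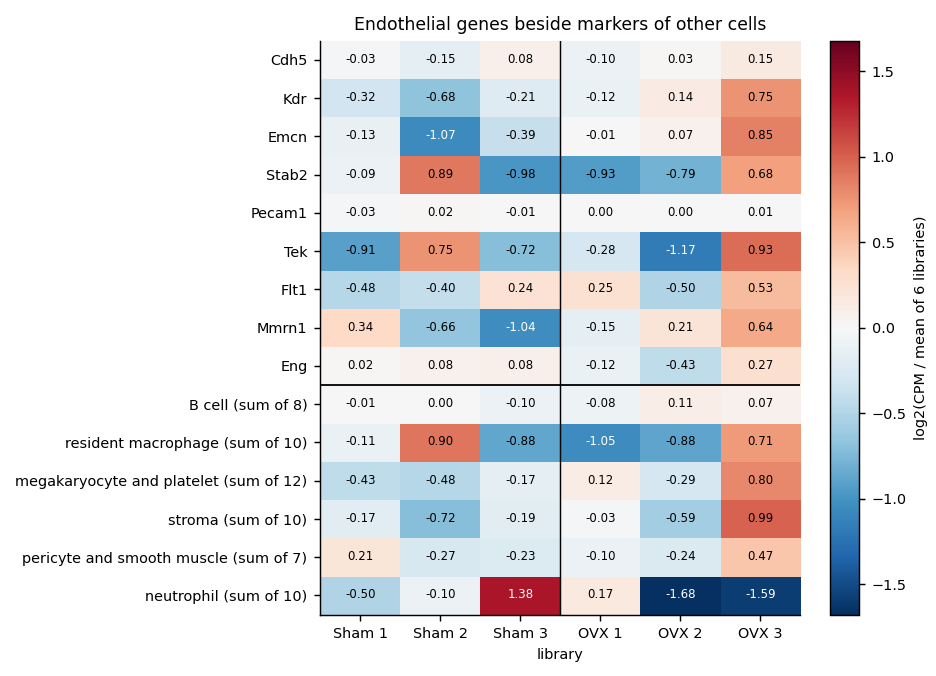
Level of each endothelial gene, and of the summed markers of 6 other cell types, in each library as the log2 of its CPM over the mean of the 6 libraries (colour, with the value printed in each cell). Stab2 and the macrophage markers are high in Sham replicate 2 and OVX replicate 3, Pecam1 stays within 0.03 of 0, and the platelet and stroma markers are highest in OVX replicate 3.

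The 9 genes did not move as one set. Pearson r between members ran from -0.17 to 0.96 over the 36 pairs, with 3 above 0.8, namely Kdr with Emcn, Stab2 with Tek, and Cdh5 with Kdr, and 8 below 0. What most of them shared was a rank: the CPM was highest in OVX replicate 3 for 7 of the 9, Stab2 and Pecam1 being highest in Sham replicate 2. Among the tested members this held for 5 of 7, against 13.1% of all genes tested (25.7% were highest in Sham replicate 2). For Mmrn1 the Poisson counting interval in OVX replicate 3 (29.5 to 33.3 CPM) lay above that of the next library, Sham replicate 1 (23.5 to 27.6). For Cdh5, Kdr, Emcn, Tek, Flt1 and Eng the interval overlapped that of the next highest library. Cdh5 was at 4.87 CPM against 4.66 in Sham replicate 3, so for these genes the rank alone does not show a high value. Markers of other cells were also highest in OVX replicate 3. For 12 megakaryocyte and platelet genes the summed CPM was between 152 and 189 in Sham and between 174 and 370 in OVX, and the 11 tested were all highest in OVX replicate 3 and all higher by fitted value, with a median of 0.64 on the log2 scale. Of these Ppbp (1.01), Treml1 (0.84) and Gp5 (0.68), which encode platelet proteins, had an unadjusted p under 0.05. Itgb3 and Itga2b, the platelet integrin chains, did not. The 3 of 11 stand beside 1.47% of all genes tested that were higher at that threshold. For 10 stroma genes, led by Cxcl12, Sparc and Col1a2, the sum was between 21.4 and 31.2 in Sham and between 23.4 and 69.9 in OVX, with 7 higher and 2 lower of 9 tested and a median of 0.44. The part of these cells in the values of Kdr, Emcn, Flt1 and Mmrn1 was not tested.

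Of the other endothelial genes 0 were called. Of 14 junction and surface genes 11 were tested, 7 higher and 4 lower, with a median of 0.08 and 0 called. Those at an unadjusted p under 0.05 were Esam (0.90), an adhesion molecule of endothelium and platelets, and Vwf (0.78), the clotting protein of endothelium and platelets. They were 2 of the 11, beside 1.47% of all genes tested that were higher at that threshold. Both were highest in OVX replicate 3. Vwf had 241, 301 and 358 reads in Sham and 487, 363 and 915 in OVX. The most abundant of the list were Cd93, which B cell progenitors also carry, at 512 ± 37.3 CPM for OVX against 426 ± 126 for Sham, and Icam2, a leukocyte adhesion ligand, at 90.0 ± 3.91 and 86.5 ± 6.62 (± SD, n = 3 each). Of 10 arterial genes 7 were tested, 5 higher and 2 lower, with a median of 0.10 and 0 at an unadjusted p under 0.05. Ly6a, Sema3g and Efnb2 were its most abundant. Sox17, an arterial transcription factor, had at most 2 reads in a library.

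Of 11 transcription factors of endothelium 9 were tested, 3 higher and 6 lower, with a median of -0.06. The 3 with the highest mean CPM, Ets1, Klf2 and Mef2c, are also B cell factors. Fli1, Lyl1, Lmo2 and Erg were read too, at means of 160, 160, 82.7 and 48.8 CPM, and did not reach an unadjusted p under 0.05. Gata2, shared with blood progenitors, was lower at an unadjusted p under 0.05 (-1.19). The vascular factor Sox7 had 0 reads in all 6 libraries, and Sox18 had between 0 and 14, with 14 in OVX replicate 3. Of 9 partners of the members' adhesion and binding functions all 9 were tested, 6 higher and 3 lower, with a median of 0.04 and 0 at an unadjusted p under 0.05. Its most abundant were Ptpn6 and Ctnnb1, a phosphatase and β-catenin, and Cd38, a ligand of PECAM-1. Cd38 was at 191 ± 81.0 CPM for OVX against 228 ± 15.3 for Sham (± SD, n = 3 each). It had 5009, 6864 and 5719 reads in Sham and 5637, 6986 and 3252 in OVX, the low library being OVX replicate 3.

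Of the remaining markers, Acta2, the actin of smooth muscle and pericytes, was lower in OVX with 27, 49 and 27 reads in Sham and 15, 10 and 12 in OVX, every OVX library below every Sham library, as for 4.12% of all genes tested. Its log2 fold change of -1.58 had an unadjusted p of 0.00371 and an adjusted p of 0.811 by edgeR's quasi-likelihood test. The other tested genes of that list were higher by fitted value, Mylk by 0.34, Rgs5 by 0.65 and Tagln by 0.097. None of these had an unadjusted p under 0.05, and the list had 3 higher and 1 lower with a median of 0.22. Mylk is also among the genes that the study chose on these libraries as upregulated in OVX and bound by HIF-1α. The direction of Mylk is thus not independent evidence. Flt3 (-0.64) of 8 stem and progenitor genes was lower at an unadjusted p under 0.05. So were Prdm1 (-0.93) and Tnfrsf17 (-1.33) of 6 plasma cell genes, and 2.28% of all genes tested. Of the tested genes 2 were higher and 4 lower in each of these lists, with medians of -0.22 and -0.56.

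**Figure D5:**
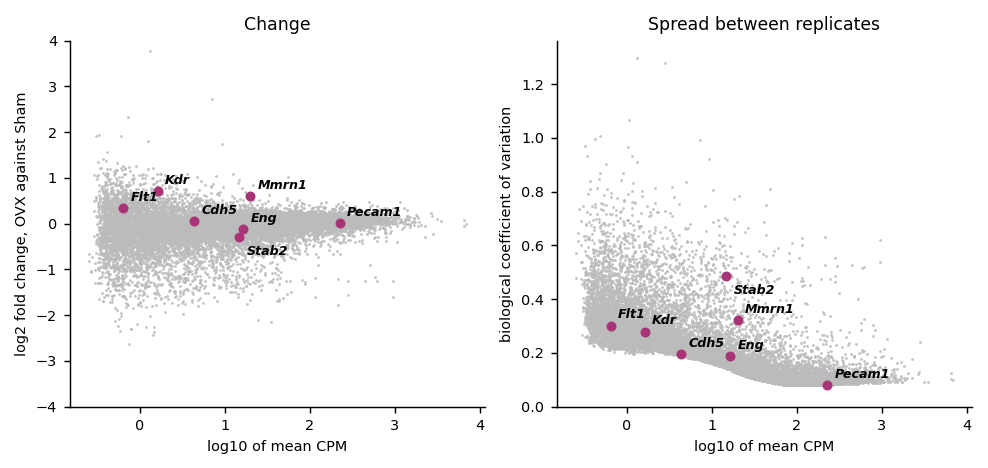
Log2 fold change in OVX against Sham (left) and biological coefficient of variation between replicates (right) against the log10 of mean CPM for all 15305 genes tested, with the 7 tested endothelial genes in purple. Pecam1 lies at the lower edge of the spread with 0.0808 and Stab2 high in it with 0.485.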

How the data were processed

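RNA-seq of mouse bone marrow B cells was used, 3 Sham and 3 OVX libraries grouped by their labels. ChIP-seq of HIF-1α, with an input library, was not analysed here. For each library the authors deposited unnormalized read counts by Ensembl gene. The submitters' processing notes name Bowtie 0.12.2, CASAVA and mm10. The counting tool, annotation and use of strand are not given in the sources used here, so reads of overlapping genes could have been assigned in ways that cannot be checked. The labels name Trizol for the RNA and the study's methods name other reagents. Symbols were matched to 54409 of 54532 identifiers, and coordinates are of GRCm38.p6. Counts were filtered by filterByExpr by group (15305 genes kept), scaled by TMM and tested with edgeR 4.0.16 (quasi-likelihood test, no block, Benjamini-Hochberg adjustment, call at 0.05) in R 4.3.3. DESeq2 1.42.0, limma-voom (limma 3.58.1), other scalings and filters, a replicate block and leaving out each library were alternatives. For single genes an exact permutation test, two-sided, was run on log2(CPM + 0.05). The test was tried on simulated data. The members and lists were chosen with earlier results of these data known. Genes named were all members and, drawn from each other list, genes at an unadjusted p under 0.05 or among the 3 with the highest mean CPM, with the 3 genes most alike to a member by Pearson r of log2 CPM. Lyve1, Fli1, Lyl1, Lmo2, Erg, Sox7, Sox17, Sox18, Gdf2, Bmp10, Tagln, Stab1, Egfl7, C1qa and Spic, with the ratios, were chosen after their values were seen. No other per-sample columns were in the table. 1 gene of the B cell list is not reported here.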

Additional observations from a re-analysis of the deposited data

How the results depend on the processing

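No member was called under any of the 14 alternatives, and no gene was called at an adjusted p under 0.05. Of 122 values of members under an alternative, 109 kept their direction and their side of the threshold, and 13 turned direction. The median log2 fold change of the tested members turned to -0.012 when libraries were scaled on the 8 B cell genes. This scaling moved the median of all genes to -0.07 and the split at an unadjusted p under 0.05 from 225 higher and 349 lower to 64 and 435. With that scaling Cdh5 was -0.012 and Pecam1 -0.053. Pecam1 was -0.011 with the library size only and -0.0031 with upper-quartile factors, and its difference of mean log2 CPM was -0.011 (exact permutation p = 0.9) with the library size only. With 1 library left out, log2 fold changes ran from -0.0044 to 0.12 for Cdh5, -0.0039 to 0.019 for Pecam1, -0.60 to 0.90 for Tek, -0.997 to 0.32 for Stab2 and -0.32 to 0.032 for Eng, and from 0.0079 to 0.23 for the median of the tested members. The cause of these changes was not tested. At an unadjusted p under 0.05 there were 574 genes, and 2698 without Sham replicate 1, 988 without OVX replicate 1, 360 without Sham replicate 2, 286 without Sham replicate 3, 233 without OVX replicate 2 and 1269 of 27416 with no filter on low counts. The replicate numbers were not taken to pair the samples: deviations of same-numbered libraries correlated at -0.40, -0.18 and -0.27. Between Sham and OVX libraries with different numbers the correlation ran from -0.19 to 0.42, highest for Sham replicate 3 with OVX replicate 1. A batch or a pairing under other numbers was not tested. With the replicate number as a block 206 genes had an unadjusted p under 0.05 and 0 were called, the median of the tested members was 0.06, and no call of a member changed. Depth limits Emcn, Tek and Flt1, with at most 31 reads in a library.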
